A study of Nematostella vectensis with 10 samples.

Results

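This report describes 48 gene models of *Nematostella vectensis*, a sea anemone, whose transcripts were more abundant in late planulae than in mid-planulae in both the apical tissue and the body. They are 48 of the 25729 gene models counted, of which 23333 had at least 15 counts in total. A gene model was taken when the lowest of the 6 late planula libraries was at least 2 times the highest of the 4 mid-planula libraries and the mean late planula level was at least 5 CPM. CPM are counts per 1000000, with library sizes scaled by edgeR's TMM method (trimmed mean of M-values). The stage values chose these genes, so the difference between stages is given below as a description without a test. The same rule with the stages exchanged took 8 gene models. This balance depended on the scaling, since without TMM 19 gene models met the rule and 48 met it with the stages exchanged.

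Planula larvae were cut with needles into an apical piece, which carries the apical organ, and the rest of the larva, called the body. Mid-planulae were 50 to 60 h and late planulae 75 to 85 h after fertilisation, and neither labels nor methods name a genetic change or a drug in any of the 4 groups. Mid-planulae gave 2 libraries per tissue and late planulae 3, and every library combined no fewer than 50 larvae taken from 3 or more batches. Each library is therefore an average over many animals and many cell types, and p-values measure the spread between such pools. In whole tissue, a lower value from fewer cells of a type cannot be told apart from less RNA per cell. Stage, age and any handling that differed between the 2 collections cannot be told apart either, since the labels give no batch or date.

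The planula of *Nematostella* is a ciliated larva that swims with its apical organ, a sensory structure with a long ciliary tuft, in front, before it forms a polyp. During the planula stages, neurons and gland cells accumulate in the ectoderm and the tissues of the coming polyp begin to form at the opposite, oral end.

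The files name genes by NVE identifiers, and no source used here gives a name or function to any of the 48, so they are described by their measured behaviour, and no sequence is shown for them. Levels are not corrected for transcript length, so a level is compared between libraries for 1 gene and not between genes.

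The libraries held 14364093 to 27730410 counts on gene models. The scaling factors ran from 1.07 to 1.26 among mid-planula libraries and from 0.745 to 1.06 among late planula libraries, and the 100 largest genes of a library held 30.5 to 34.5% of its counts in the mid-planula and 36.3 to 46.7% in the late planula, so both moved with stage. Without TMM, the lowest late library was still above the highest mid library for all 48 genes (lowest ratio 1.24). Most markers of the tissues lay in the labelled tissue, with exceptions. All 3 genes of the ring around the apical cells, all 6 genes of the apical spot and the 4 markers of gland/secretory cell types 1 and 2 were called higher in apical tissue at both stages, and the 4 markers of gland/secretory cell type 4 higher in the body. The 2 markers of gland/secretory cell type 3, which the study describes as present in both regions, were also called higher in apical tissue at both stages. NVE3775, which the study's text names as the apical neuropeptide gene RPamide III, was not called at either stage, with log2 fold changes of apical tissue over body of -0.22 and -0.52. NVE3755, a neuropeptide gene with a similar identifier, was called higher in apical tissue at both stages, with log2 fold changes of 2.65 and 2.21. Whether the identifier in the study's text is that of its RPamide III probe was not tested. Summed spot markers were 37.1 to 51.8 CPM in the body libraries and 735 to 1078 CPM in the apical libraries.

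The 48 genes together took a small share of the RNA, which was several-fold larger in every late planula library. Their counts were 0.0204 to 0.0366% of a mid-planula library and 0.0873 to 0.135% of a late planula library. Summed CPM were 290 and 189 in the mid-planula body, 168 and 248 in the mid-planula apical tissue, 1330, 1189 and 1414 in the late planula body, and 983, 1314 and 1485 in the late planula apical tissue. Single genes had a mean late planula level 2.85 to 24.1 times their mean mid-planula level, with a median of 6.17. The ratio the rule used had a median of 2.48 and was at least 3 for 16 genes and at least 5 for 4 genes.

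The size of the difference was similar in the tissues over the set, although not gene by gene. The rule required a difference in both tissues at once, so this similarity is a description of the choice and not a separate result. In the body the late mean was 2.92 to 40.9 times the mid mean (median 5.90), and in the apical tissue 2.45 to 35.7 times (median 6.82). The factor was larger in the body for 23 genes and larger in the apical tissue for 25. All but 1 gene were detected in every library, the exception being NVE9578 with 0 counts in mid-planula apical replicate 1, which allows up to 0.104 CPM. Counts behind a single value ranged from 0 to 1201 in the mid-planula (median 56) and from 54 to 3598 in the late planula.

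**Figure D1:**
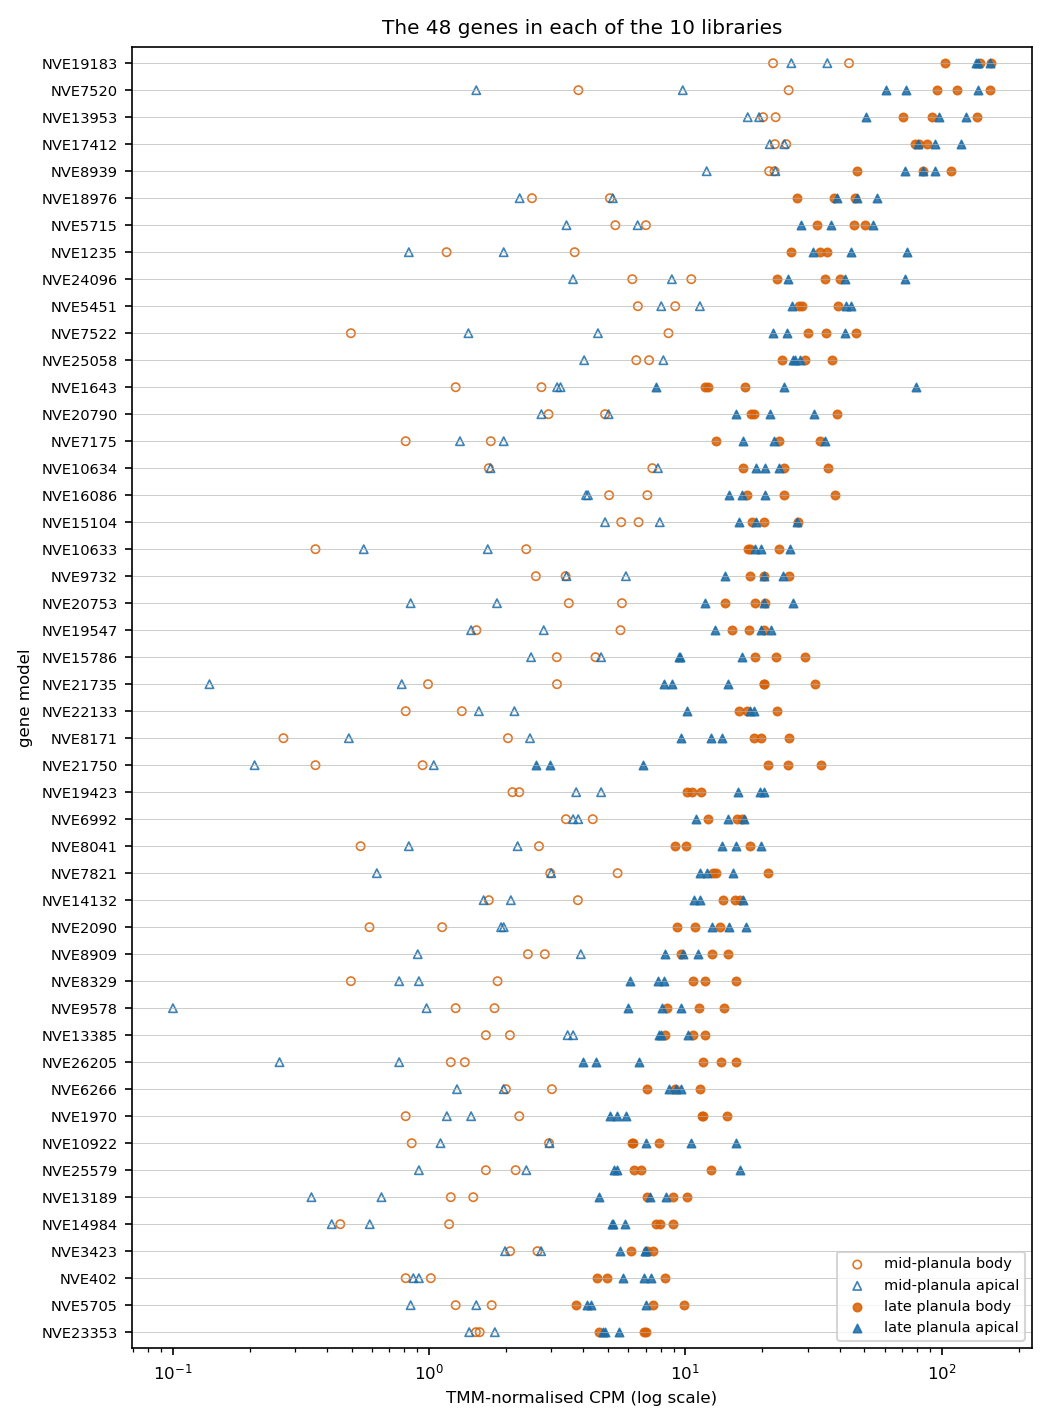
Level of each of the 48 gene models in the 10 libraries, as TMM-normalised CPM on a log axis, with the genes in order of their mean late planula level. Open symbols are mid-planula and filled symbols late planula, circles body and triangles apical tissue. The value of 0 for NVE9578 is drawn at 0.1 CPM, and for every gene the filled symbols lie to the right of the open ones because that is how the genes were chosen.

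Before any threshold on the ratio, every late planula library exceeded every mid-planula library for 675 of the 11992 gene models with a mean late level of at least 5 CPM, while 919 gene models with a mean mid level of at least 5 CPM showed the opposite. Stage differences without overlap thus ran in both directions. Over all 21683 gene models that edgeR tested, 6.58% were called higher and 4.64% lower in the late planula. The 48 genes were chosen on that same contrast, so no count of them is set against these shares.

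**Figure D2:**
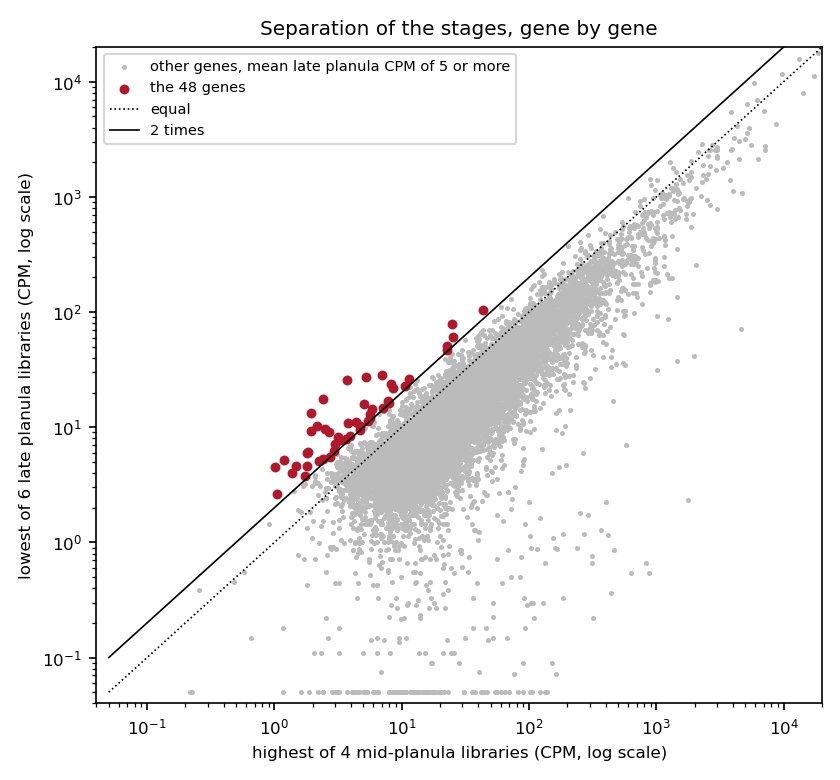
Highest of the 4 mid-planula libraries (x axis, CPM) against the lowest of the 6 late planula libraries (y axis, CPM), both log scales, for gene models with a mean late level of at least 5 CPM. Lowest values of 0 are drawn at 0.05 CPM. The 48 genes lie on or above the solid line of 2 times, and the dotted line marks equal values.

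The 4 genes with the highest mean late planula CPM were NVE19183, NVE7520, NVE13953 and NVE17412. NVE19183 had 43.6 and 22.0 CPM in the mid-planula body, 25.9 and 35.8 in the mid-planula apical tissue, 156, 103 and 141 in the late planula body and 136, 139 and 155 in the late planula apical tissue. Its tissues overlapped at both stages, and its late mean was 4.35 times its mid mean. NVE17412 was the most even of the 4, with 21.4 to 24.8 CPM over the mid-planula libraries and 79.1 to 119 over the late planula libraries, 3.90 times as much on average. NVE13953 had 17.5 to 22.5 CPM in the mid-planula and ranged from 50.9 to 138 CPM in the late planula. In the late planula its replicates therefore differed by more than its tissues did, with 70.8, 91.6 and 138 CPM in the body and 50.9, 97.8 and 125 in the apical tissue.

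Of these 4 genes, NVE7520 had the largest range over the mid-planula libraries. It had 25.3 and 3.82 CPM in the mid-planula body, 1.53 and 9.77 in the mid-planula apical tissue, 96.2, 154 and 115 in the late planula body and 60.9, 139 and 72.7 in the late planula apical tissue. The mean fold of 10.5 therefore depends on which mid-planula library it is read against. NVE7522, which lies 2 identifiers further and was singled out after its values were seen, ordered the mid-planula libraries in nearly the same way, with 8.59 and 0.495 CPM in the body and 1.42 and 4.56 in the apical tissue. Its late planula values were 30.2, 46.6 and 35.3 CPM in the body and 24.8, 41.9 and 22.0 in the apical tissue, so replicate 2 was the highest of both tissues in both genes. Consecutive identifiers also occur for NVE10633 and NVE10634. How the counting treated reads of near-identical or overlapping gene models is not given in the sources used here, so the counts of such neighbours are uncertain and may not be independent.

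The largest separations between stages belonged to NVE10633, NVE1235, NVE7175 and NVE18976, whose lowest late library was 7.31, 6.96, 6.74 and 5.25 times their highest mid library. NVE10633 had 2.39 and 0.36 CPM in the mid-planula body, 0.555 and 1.69 in the mid-planula apical tissue, 17.5, 17.9 and 23.1 in the late planula body and 18.7, 25.6 and 19.7 in the late planula apical tissue. The late libraries were close to each other and the mid libraries were not, and the late mean was 16.3 times the mid mean. NVE10634, its neighbour by identifier, was singled out after its values were seen and had 7.43 and 1.71 CPM in the mid-planula body, 1.74 and 7.82 in the mid-planula apical tissue and 16.8 to 36.0 in the late planula. Both genes were low in the same pair of mid-planula libraries, body replicate 2 and apical replicate 1.

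NVE1235 had 3.70 and 1.17 CPM in the mid-planula body, 0.833 and 1.95 in the mid-planula apical tissue, 33.5, 25.8 and 35.6 in the late planula body and 31.4, 44.2 and 73.5 in the late planula apical tissue. Its factor in the apical tissue, 35.7, was the largest of the 48, against 13.0 in the body, but the late tissues overlapped and the interaction described below was not called. NVE7175 had 0.810 to 1.95 CPM over the mid-planula libraries, 33.6, 13.2 and 23.2 in the late planula body and 22.3, 16.7 and 35.1 in the late planula apical tissue, a mean of 16.5 times the mid level. NVE18976 had 2.26 to 5.21 CPM in the mid-planula and 27.4 to 56.0 in the late planula, 11.2 times as much on average. Neither gene separated the tissues at the late stage.

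The members nearest the thresholds had smaller differences. NVE15786 and NVE3423 were just inside the ratio of 2, at 2.02 and 2.03. NVE3423 also had the closest late libraries of all 48, with 7.46, 6.15 and 7.08 CPM in the body and 7.05, 5.55 and 6.98 in the apical tissue against 1.98 to 2.74 CPM in the mid-planula. Its fold of 2.85 was the smallest of the set. NVE18223 and NVE20490 were just outside, at 1.99 and 1.96, with late means of 3.26 and 3.24 times their mid means. On the level threshold, NVE23353 (5.6 CPM) and NVE5705 (6.10 CPM) were just inside, and NVE2089 (4.93 CPM) and NVE11567 (4.78 CPM) just outside. NVE2089 was at 0 counts in both mid-planula apical libraries, had 0.544 and 0.900 CPM in the mid-planula body and 3.51 to 6.18 CPM in the late planula. Its neighbour by identifier, NVE2090, met the rule, and was singled out here after its values were seen. It had 1.12 and 0.585 CPM in the mid-planula body, 1.91 and 1.95 in the mid-planula apical tissue and 9.32 to 17.2 in the late planula.

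Within the late planula the highest library of a member was 1.34 to 12.9 times the lowest (median 2.15). The lowest late library entered the rule, so this spread is a description only. The largest spread was that of NVE21750, where it fell between the tissues.

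In the mid-planula the replicates of 1 tissue differed in a shared direction. Body replicate 1 was above body replicate 2 for 40 of the 48 genes, and apical replicate 2 above apical replicate 1 for 38. Both held for 32 genes, which is 66.7% of the members, against 17.6% of all tested genes. The median difference of log2(CPM + 0.5) was 0.47 between the body replicates and 0.46 between the apical replicates, against -0.02 and -0.04 over all tested genes. Body replicate 2 or apical replicate 1 was the lowest mid library for 40 genes. These libraries entered the rule, so the values are a description and no test is given.

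The samples span 10 h at each stage and were pooled from several batches, and the exact age within a library is not given in the labels. Whether age, dissection or another property of the pools moved with these values was not tested. The rule was sensitive to the same libraries. With body replicate 2 and apical replicate 1 as the only mid-planula libraries, 166 gene models met it, and with the other pair, body replicate 1 and apical replicate 2, 58 did. Without body replicate 1 or without apical replicate 2 the counts were 98 and 82. Leaving out late planula apical replicate 1, which was the lowest late library of 19 members and the highest of none, gave 82.

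**Figure D3:**
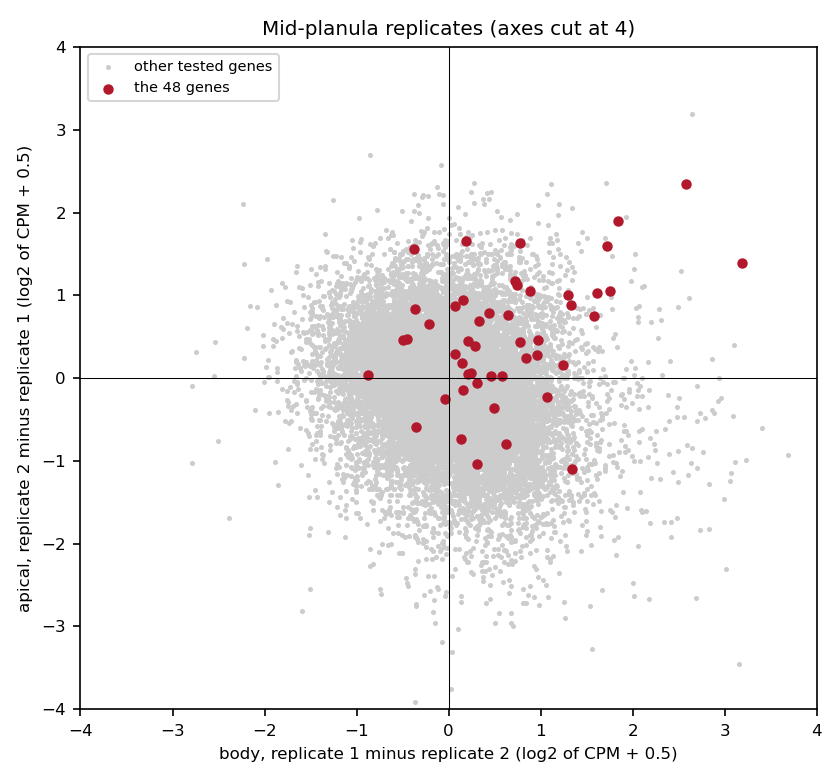
Difference between the 2 mid-planula body replicates (x axis) and between the 2 mid-planula apical replicates (y axis) in log2(CPM + 0.5), for the 48 genes and the other tested gene models, with the axes ending at 4 on either side. Of the 48 genes, 32 lie in the upper right part of the plot, which holds 17.6% of all tested genes.

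The comparison of apical tissue with body is not the contrast the rule used, but the rule limits it. Every late library of either tissue had to be at least 2 times every mid-planula library of either tissue. A gene with a strong tissue bias therefore needed a larger stage difference to meet the rule. Shares of members called or without overlap are given as descriptions beside the shares of all tested genes. The comparison was tested over all 21683 gene models, the 48 among them, with edgeR's quasi-likelihood test and Benjamini-Hochberg adjustment at 0.05. Most members showed no called difference between the tissues. In the mid-planula none of the 48 was called, where 1.75% of all tested genes were called higher in apical tissue and 2.54% higher in the body. At an unadjusted p under 0.05 there were 3 members higher in apical tissue and 5 higher in the body. The DESeq2 Wald test called 2 members, NVE20753 and NVE21735, both with lower apical values, and limma-voom called none. Leaving out mid-planula apical replicate 2 gave 2 edgeR calls, NVE7821 and NVE9578, and leaving out late planula apical replicate 1 or 2 gave 1. The median log2 fold change of apical tissue over body was -0.17 over the members and -0.07 over all tested genes.

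In the late planula 3 members were called, all higher in the body. They are 6.25% of the 48, beside 6.19% of all tested genes called in that direction. None was called higher in apical tissue, where 4.61% of all tested genes were, with 2 members at an unadjusted p under 0.05. DESeq2 and limma-voom called 1 member higher in apical tissue, NVE19423, and without late planula apical replicate 1 edgeR called NVE1643 higher there (log2 fold change 1.42 with all libraries, edgeR adjusted p = 0.177). The median log2 fold change was -0.13 over the members and -0.01 over all tested genes, and over both directions 3 of the 48 were called, where 10.8% of all tested genes were.

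NVE21750 showed the largest tissue difference. It had 25.2, 21.0 and 33.7 CPM in the late planula body and 2.97, 2.62 and 6.83 in the late planula apical tissue, without overlap, after 0.943 and 0.36 CPM in the mid-planula body and 0.208 and 1.04 in the mid-planula apical tissue. The late planula body mean was 26.7 ± 6.49 CPM (SD, n = 3) and the apical mean 4.14 ± 2.33 CPM (SD, n = 3). The log2 fold change of apical tissue over body was -2.70 (SE 0.51), with an edgeR adjusted p of 0.0037, and the call held in all 18 alternatives. Its late mean was 40.9 times its mid mean in the body and 6.62 times in the apical tissue, the largest factor in the body among the 48. In the mid-planula the gene was low in both tissues, at 6 to 26 counts a library, and the tissues overlapped, with a log2 fold change of -0.22 (SE 0.75).

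NVE26205 had 11.8, 15.8 and 13.7 CPM in the late planula body and 4.46, 3.97 and 6.61 in the late planula apical tissue. The tissues did not overlap and the log2 fold change was -1.46 (SE 0.35), with an edgeR adjusted p of 0.0175. Its mid-planula values, 1.38 and 1.21 CPM in the body and 0.764 and 0.261 in the apical tissue, lay in the same order at a log2 fold change of -1.24 (SE 0.50, edgeR adjusted p = 0.26), so the gene was body-biased in value at both stages and about 10 times higher in both tissues of the late planula. Leaving out late planula body replicate 2 or 3 or apical replicate 1 or 2 took its late call past the threshold, to edgeR adjusted p-values of 0.0586 to 0.0830.

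NVE1970 had 14.5, 11.6 and 11.7 CPM in the late planula body and 5.07, 5.42 and 5.86 in the late planula apical tissue, again without overlap. Its log2 fold change was -1.21 (SE 0.35), with an edgeR adjusted p of 0.0439. This call was the least firm of the 3, being lost in 8 of 19 alternatives, those that left out any 1 library other than the mid-planula body ones, with edgeR adjusted p-values up to 0.150. Its mid-planula values of 0.810 to 2.25 CPM overlapped between the tissues.

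Without a threshold on p, the 3 apical and 3 body libraries of the late planula did not overlap for 9 members. The body was higher in 8 of the 48, where 14.9% of all tested genes were so, and the apical tissue in 1, where 11.8% were. The 1 gene is NVE19423, singled out after its values were seen. It had 2.25 and 2.11 CPM in the mid-planula body, 3.75 and 4.69 in the mid-planula apical tissue, 10.2, 11.5 and 10.6 in the late planula body and 19.6, 16 and 20.3 in the late planula apical tissue. The apical tissue was above the body in every library of either stage, and the late mean was 4.94 times the mid mean in the body and 4.41 times in the apical tissue.

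**Figure D4:**
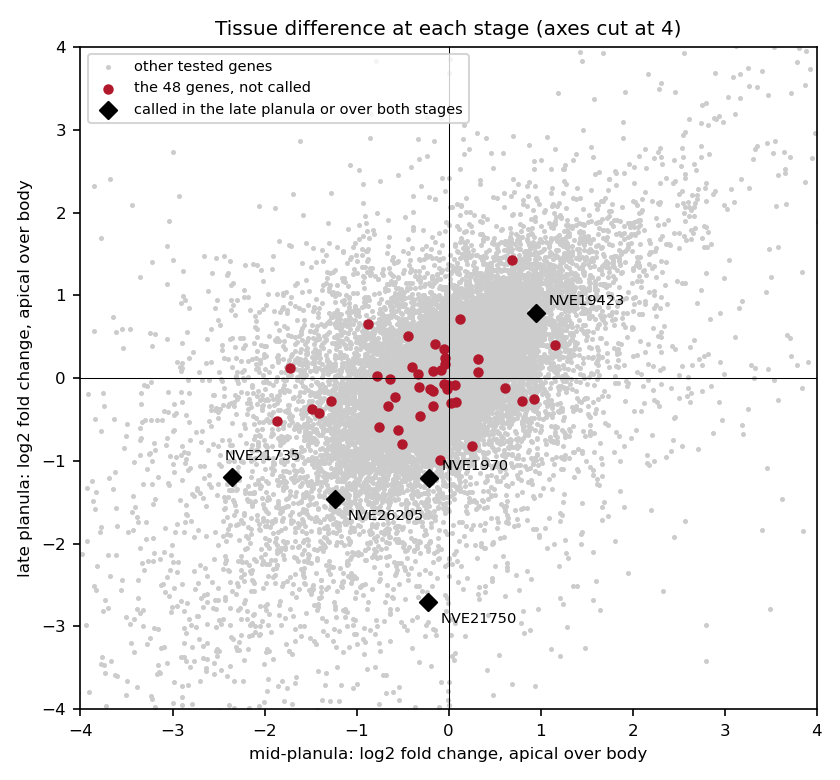
Fitted log2 fold change of apical tissue over body in the mid-planula (x axis) and in the late planula (y axis), with the axes ending at 4 on either side. Red points are members not called, black diamonds the 5 members called in the late planula or over both stages, and grey points the other tested gene models. Of the 5, NVE19423 lies above 0 on both axes and the other 4 lie below 0 on both.

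Averaged over both stages, which the 4-group fit allows without adding the stage difference to the spread, 4 members were called. NVE19423 was higher in apical tissue, with a log2 fold change of 0.87 (SE 0.20) and an edgeR adjusted p of 0.00945. It is 2.08% of the members, beside 6.66% of all tested genes called in that direction. NVE21735, NVE21750 and NVE26205 were higher in the body, 6.25% of the members beside 7.9% of all tested genes. NVE21735, singled out after its values were seen, had 3.15 and 0.990 CPM in the mid-planula body, 0.139 and 0.782 in the mid-planula apical tissue, 20.4, 20.3 and 32.1 in the late planula body and 8.26, 14.7 and 8.91 in the late planula apical tissue. Its tissues did not overlap at either stage, and its log2 fold change was -1.77 (SE 0.43), with an edgeR adjusted p of 0.0136. Without mid-planula body replicate 1 or apical replicate 1 its adjusted p was 0.109 or 0.0729, and NVE21750 lost its call over both stages in 9 of 18 alternatives, 7 of which left out a library (any but mid-planula body replicate 2, mid-planula apical replicate 2 and late planula apical replicate 3). The count of 4 was 2 without mid-planula apical replicate 1 and 6 without mid-planula body replicate 2 or without apical replicate 2. Taken over the 3 tissue comparisons, 43 of the 48 members (89.6%) were called in none, as were 84.5% of all tested genes. The rule limits tissue bias among the members, so these shares are not an independent comparison.

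Whether a member changed by a different factor in the tissues was tested as the interaction of stage and tissue. No member was called, and 3 had an unadjusted p under 0.05. DESeq2 and limma-voom called none of the 48 either, and edgeR called 1, NVE9578, without mid-planula apical replicate 2. Over all 21683 gene models, 0% were called with a larger late-to-mid factor in the apical tissue, where 277 had an unadjusted p under 0.05, and 0.0231% with a larger factor in the body, where 598 had. Over both directions the DESeq2 Wald test called 110 of all tested genes and limma-voom 1. The estimates for the members ran from -2.48 to 1.84, with a median of 0.11 against 0.06 over all tested genes.

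The estimate furthest below 0 was that of NVE21750, -2.48 (SE 0.91, unadjusted p = 0.0177 and adjusted p = 1 by edgeR). The furthest above 0 was that of NVE20753, 1.84 (SE 0.58), at an edgeR unadjusted p of 0.00741 and adjusted p of 0.751. NVE20753, singled out after its values were seen, had 5.66 and 3.51 CPM in the mid-planula body, 1.84 and 0.847 in the mid-planula apical tissue, 14.3, 20.5 and 18.7 in the late planula body and 11.9, 26.2 and 20.3 in the late planula apical tissue. The tissues were apart in the mid-planula and overlapped in the late planula. The standard errors of such estimates are wide, and a missing call does not show that a gene changed alike in both tissues.

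To place the 48 genes among known larval genes, 34 gene models with a named class were followed across the same stages, the spot, ring, neuropeptide, receptor and gland/secretory genes that the study names. None of the 34 met the rule, which 48 of 23333 gene models met. In the late planula edgeR called 19 of the 34 higher in apical tissue and 13 higher in the body. Such tissue-biased genes could hardly meet a rule over both tissues, so their absence says little about the 48. In the stage comparison, which did not choose these 34, edgeR called 5 (14.7%) higher and 1 (2.94%) lower in the late planula, beside 6.58% and 4.64% of all tested genes, and their median log2 fold change was 0.11 against 0.02 over all tested genes. The calls fell in 5 of the 8 classes. There were 2 of 7 neuropeptides, 1 of 8 neurotransmitter receptors or enzymes, 1 of 2 markers of gland/secretory cell type 1 and 1 of 4 of type 4 higher, and 1 of 6 spot genes lower. No ring gene and no marker of gland/secretory cell types 2 and 3 was called, and without mid-planula body replicate 2 or without mid-planula apical replicate 1 only NVE9858 and NVE10492 were called. Without late planula body replicate 3 the count was 3.

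NVE9858, which encodes the precursor of the neuropeptide Nv-LWamide, had 15.4 and 10.2 CPM in the mid-planula body, 2.67 and 2.02 in the mid-planula apical tissue, 36.7, 42.3 and 38.0 in the late planula body and 5.73, 7.04 and 12.3 in the late planula apical tissue. Within each tissue every late library exceeded every mid library. The log2 fold change between stages was 1.71 (SE 0.25), with an edgeR adjusted p of 0.00184, and it was called in all 17 alternatives. The gene missed the rule because its lowest late apical value (5.73 CPM) lay below its highest mid-planula body value (15.4 CPM). LWamides are neuropeptides known in other cnidarians for their part in metamorphosis and muscle contraction.

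The Antho-RFamide precursor NVE7549 had 37.0 and 56.4 CPM in the mid-planula body, 27.5 and 43.0 in the mid-planula apical tissue, 244, 83.2 and 157 in the late planula body and 72.2, 35.1 and 71.2 in the late planula apical tissue. The stages overlapped in the apical tissue and not in the body, and the log2 fold change was 1.28 (SE 0.32, edgeR adjusted p = 0.0215). RFamides are peptides of cnidarian neurons. The metabotropic glutamate receptor gene NVE2150 was higher in the late planula by a log2 fold change of 0.92 (SE 0.25, edgeR adjusted p = 0.0344). The gland/secretory markers NVE22589 and NVE10584 were higher by 0.90 (SE 0.21, edgeR adjusted p = 0.0179) and 0.98 (SE 0.29, edgeR adjusted p = 0.0467). The first marks a type of the apical tissue and the second a type of the body. NVE10584 lost its call in 9 of 16 alternatives. In the body it overlapped between stages, at 21.0 and 24.5 CPM and then 37.0, 22.2 and 40.1, a factor of 1.45. The larger factor, 2.51, was in the apical tissue, where it was low. Its apical values were 0.312 and 0.456 CPM in the mid-planula and 0.991, 1.31 and 0.594 in the late planula. The calls of NVE7549, NVE2150 and NVE22589 were lost in 4, 6 and 3 of 17.

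The spot gene NVE10492 was called lower in the late planula at an edgeR adjusted p of 0.00953, through its body libraries. These had 8 and 10 counts in the mid-planula and 0 in each late planula library, at least 1.72-fold lower in CPM when 3 counts in the shallowest late body library are taken as the limit. In the apical tissue it had 12.2 and 11.7 CPM in the mid-planula and 14.2, 15.5 and 7.72 in the late planula, so its level in the tissue that holds the spot overlapped between stages.

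**Figure D5:**
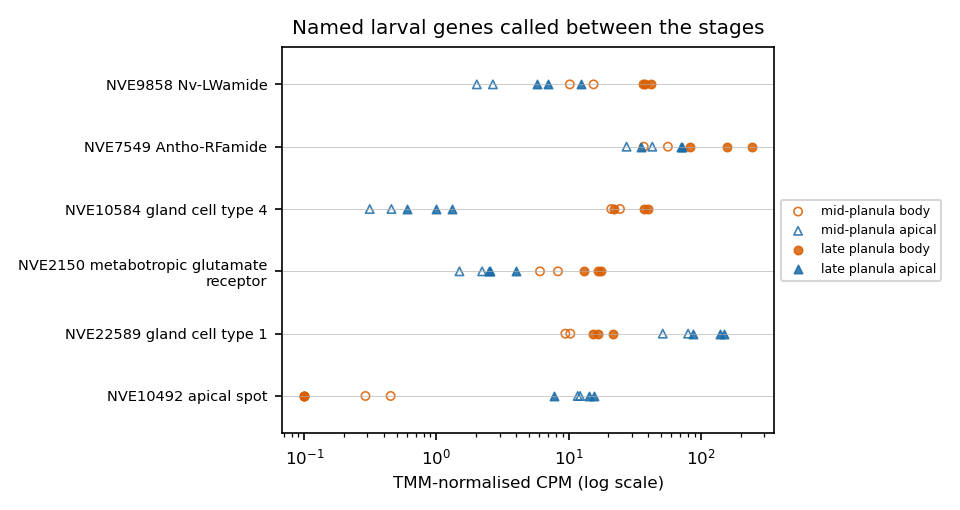
Level of the 6 named larval genes called between the stages in the 10 libraries, as TMM-normalised CPM on a log axis, with open symbols for the mid-planula, filled symbols for the late planula, circles for the body and triangles for the apical tissue. The 3 late planula body libraries of NVE10492, at 0, are drawn at 0.1 CPM. For NVE9858, the late values lie to the right of the mid values within each tissue, and the tissues are further apart than the stages.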

How the data were processed

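Total RNA of dissected planula tissue was sequenced as paired-end mRNA libraries (Lexogen SENSE mRNA-Seq kit). Per the labels and methods, the authors trimmed reads with Trimmomatic 0.36, mapped them with STAR, counted them on NVE gene models with HTSeq 0.6 and deposited raw counts, 1 file a library. The submitters' processing notes also name Bowtie2, limma and DESeq2. The genome build, the strand setting and the handling of overlapping models are not given in the sources used here. Within a library, 70.3 to 83.9% of counts between 1 and 20 were even. Whether mates of a pair were counted separately is not given, and if so a value rests on fewer fragments than its count.

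The members and gene lists were chosen with earlier results of these data known. The rule used TMM factors over gene models with at least 15 counts. Tests used edgeR 4.0.16 (R 4.3.3, limma 3.58.1) with the quasi-likelihood fit of all 10 libraries as 4 groups, TMM, filterByExpr (minimum count 10, minimum total 15) and Benjamini-Hochberg adjustment over 21683 gene models. All 48 members passed the filter, and all 48 also passed it when it was applied to the 4 mid-planula libraries alone. Adjusted p-values under 0.05 were called. Standard errors are the absolute log2 fold change divided by the square root of F. The scripts were tested on simulated data. Floors are 3 counts and cover counting error only. No replicate pair was a repeated library.

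The genes named are the 4 members of highest mean late CPM, the 4 of largest ratio, up to 4 in each direction with a late tissue call and tissues that did not overlap, up to 4 called for the interaction (none was), the 3 with the closest late libraries, members on the list of larval genes (none was) and the 2 genes on each side of each threshold. The alternatives were other scalings and filters, DESeq2 1.42.0, limma-voom, other thresholds of the rule, a minimum log2 fold change of 1, subsets of libraries, a replicate block and leaving out each library. The use of pairs of mid-planula libraries and halved counts were added after seeing the data.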

Additional observations from a re-analysis of the deposited data

Results flagged for a closer look

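Of 96 sets of values (each member in the 4 mid-planula or in the 6 late planula libraries), 3 held a library far from the others by Dixon's criterion, which chance meets in about 5% of sets. The sets mix the tissues. NVE1643 had 79.3 CPM in late planula apical replicate 3, and the next highest of the 6 late libraries had 24.4. NVE19183 had 103 CPM in late planula body replicate 2, below the other late libraries at 136 to 156. NVE8939 had 12.1 CPM in mid-planula apical replicate 1, below the other mid libraries at 21.2 to 22.5.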

How the results depend on the processing

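The number of genes meeting the rule, 48, became 19 without TMM (which shifts the median late-to-mid log2 ratio of all genes from 0.01 to -0.31), and the number meeting it with the stages exchanged, 8, became 48, so the balance turned. The latter was 86 at a ratio of 1.5, 60 with mid-planula body replicate 2 and apical replicate 1 alone and 40 without mid-planula apical replicate 2. The former was 137 at a ratio of 1.5, 16 at a ratio of 3, 166 with mid-planula body replicate 2 and apical replicate 1 alone, and 49 to 98 when 1 library was left out. Members called between tissues in the mid-planula, 0, became 2 by the DESeq2 Wald test, 1 without a filter, 1 with the replicate block and 0 to 2 without 1 library. In the late planula, 3 became 5 by DESeq2, 6 by limma-voom, 1 with at least 10 counts in every library, which left 41 members tested, and 1 to 3 without 1 library. Over both stages, 4 became 7 by DESeq2, 2 with at least 10 counts, 8 with the replicate block, 0 with the stages pooled, where the stage difference enters the spread, and 2 to 6 without 1 library. For the interaction, 0 became 1 without mid-planula apical replicate 2. The listed genes called between stages, 6, became 3 at a log2 fold change of at least 1 and 2 to 7 without 1 library. The causes were not tested except where the construction shows them.

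Same-numbered apical and body libraries share only a number in the labels. Their deviations correlated at 0.16 in the mid-planula and at 0.23, 0.49 and -0.09 in the late planula. Late planula apical and body libraries of unlike number correlated at -0.51 to 0.36, so these values do not settle whether libraries were paired. With 2 libraries per tissue, the mid-planula gives a single value. With the replicate block, 4 members were called in the late planula and 0 for the interaction. No value reversed its direction. Of 195 late-to-mid ratios of named members under alternatives, 11 moved by more than the spread over the late planula libraries, both tissues together. For members that differed between the tissues, that spread includes the tissue difference, so their ratios were less readily counted as moved. Halving all counts left the counts of called members and called listed genes as they were. Calls over all tested genes changed, from 2343 of 21683 to 2447 of 19882 between tissues in the late planula and from 5 to 4 for the interaction. With 2 mid-planula libraries per tissue and a median of 56 counts a value, tissue differences of single members in the mid-planula are measured with low precision.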
